A study of Rattus norvegicus with 16 samples.

Results

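The genes of the sarcomere, the Z-disc and the costamere described here are 43 genes chosen by symbol and followed in left ventricular RNA of rats that had inhaled air or diesel exhaust (DE). Of these 43 genes, 40 had at least 1 probe set that the platform annotation assigns to that gene alone, 58 probe sets in all, out of 15866 probe sets tested that name 10411 genes. The 3 probe sets of Actc1, cardiac α-actin, are shared with other genes in the annotation and were not used, and Nebl and Lmod2 are not listed in it. The samples were 16 Affymetrix Rat 230A arrays, 4 male rats in each of 4 groups, with an age of 12 to 14 weeks in the sample records. The methods give that age for the rats as purchased, so they were older when the tissue was taken. WKY-air and WKY-DE were Wistar Kyoto rats, the normotensive strain. SH-air and SH-DE were spontaneously hypertensive (SH) rats, an inbred strain with high blood pressure for which WKY serves as the control. The DE groups inhaled exhaust at 2 mg/m3 of particles on 5 days a week for 4 weeks, and the air groups breathed clean air. The daily exposure is 6 h in the sample records and 4 h in the methods. The tissue was a portion of the left ventricle with the septum, taken 1 day after the last exposure. Values are MAS5 signals, a fluorescence summary on a linear scale, with each array scaled by the authors to a common trimmed mean, and differences are given on the log2 scale after an offset of 16.1 was added.

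The sarcomere is the repeating contractile unit of striated muscle, in which myosin thick filaments pull on actin thin filaments once calcium binds troponin. Titin spans from the M-band, where thick filaments are cross-linked, to the Z-disc, where thin filaments are anchored. The costamere, built on dystrophin, the sarcoglycans, dystroglycan and vinculin, couples the Z-disc to the cell membrane and the matrix. Mutations in many of these genes cause cardiomyopathy or muscular dystrophy.

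Averaged over exposures, SH rats had lower signal of the M-band gene Myom2 and of a dim second probe set of the myosin light chain Myl2, and higher signal of the filamin Flnc. SH-DE against WKY-air had lower signal of the myosin light chain Myl3 (−0.64) and of the chaperone Cryab (−0.58). After quantile normalization, which gives every array the same distribution of values, those log2 differences were −0.21 and −0.17 and neither was called, and of the strain calls the dim Myl2 probe set was the 1 still made. No member passed the test in the strain comparison in air, in the strain comparison under DE, or in either exposure comparison within a strain. Most members had a lower signal under DE in both strains in the MAS5-scaled values, and their median was within 0.04 of 0 on the log2 scale after quantile normalization.

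Across the 16 arrays, Pearson correlations of log2 signals ran from 0.933 to 0.968. The summed signal of the ventricular myocyte markers was 142324 to 241158. The 14 of 15 skeletal muscle fibre markers on the array summed to 9097 to 13975, of which Myh1, a fast myosin heavy chain, gave 6660.4 to 11918, while Tnnt3 reached at most 98.3 and Pvalb at most 18. Atrial myocyte markers moved with the groups, and the summed signal of the 8 of 9 on the array was 50748 to 123781 for WKY-air, 25653 to 38143 for SH-air, 23994 to 56626 for WKY-DE and 24171 to 46364 for SH-DE. The atrial light chain Myl7 ran from 4415 to 25946 in WKY-air and from 33.4 to 154 in SH-air, and among the DE arrays it was highest in replicate 3 of each strain, at 9629.5 in WKY-DE and 7876 in SH-DE. In bulk tissue, fewer cells of a type and less RNA per cell cannot be told apart.

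The regions before the start sites are printed for 4 members, as examples of the muscle motifs in members with a called signal (Myl3, Flnc) or probe sets that disagreed (Ldb3), and of a MEF2 match (Mybpc3). RefSeq sequences on build GRCr8 covered 35 of the 43 genes with 42 start sites, and the 250 bases before each were searched on both strands. The SRF site (CArG box) was found before 7 of the 42 start sites (16.7%) against 1.5% of all 33469, in Dmd, Fhl1, Fhl2, Ldb3, Myl3 and Nebl. The MEF2 site was found before 4 (9.52% against 0.523%), in Mybpc3, Myoz2, Smpx and Ttn. The MCAT element CATTCC was found before 8 (19.0% against 12.1%), in Cav3, Fhl2, Flnc, Myl3, Nexn, Tnnt2, Tpm1 and Vcl, and the E-box CANNTG before 30 (71.4% against 65.5%). The sequences run 5′ to 3′ on the strand of the gene and end at the base before the start site. Each motif was counted whether or not it overlapped another. Capitals mark SRF, MEF2 and MCAT matches (an MCAT element on the other strand reads GGAATG), which are matches of letters and not measured binding.
Myl3 (chr8:119616844-119617093, plus strand): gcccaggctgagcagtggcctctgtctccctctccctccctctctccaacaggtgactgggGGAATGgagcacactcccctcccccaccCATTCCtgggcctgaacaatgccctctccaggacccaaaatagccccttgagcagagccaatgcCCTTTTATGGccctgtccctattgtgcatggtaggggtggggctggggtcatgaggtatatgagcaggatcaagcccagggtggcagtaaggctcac
Flnc (chr4:58999297-58999546, plus strand): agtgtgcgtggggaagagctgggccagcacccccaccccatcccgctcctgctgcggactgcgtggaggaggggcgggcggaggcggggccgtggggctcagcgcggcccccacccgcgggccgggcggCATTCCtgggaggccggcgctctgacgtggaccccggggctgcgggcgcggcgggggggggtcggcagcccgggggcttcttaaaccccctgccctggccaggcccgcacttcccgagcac
Ldb3 (chr16:9924680-9924929, minus strand): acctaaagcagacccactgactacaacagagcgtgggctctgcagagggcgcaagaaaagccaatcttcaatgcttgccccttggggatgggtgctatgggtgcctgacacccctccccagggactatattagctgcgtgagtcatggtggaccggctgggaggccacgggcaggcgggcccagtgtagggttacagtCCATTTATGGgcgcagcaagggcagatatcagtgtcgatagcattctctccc
Mybpc3 (chr3:97550811-97551060, plus strand): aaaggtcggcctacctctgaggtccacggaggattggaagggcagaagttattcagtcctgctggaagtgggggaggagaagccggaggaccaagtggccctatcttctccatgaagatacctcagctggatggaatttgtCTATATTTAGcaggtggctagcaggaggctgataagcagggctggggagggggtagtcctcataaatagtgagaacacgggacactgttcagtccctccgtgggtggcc
Counted back from the start site, the Myl3 region has an SRF site that begins at -97, with 2 MCAT elements further upstream. The Flnc region has an MCAT element at -121, the Ldb3 region an SRF site at -52 and the Mybpc3 region a MEF2 site at -109.

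The strains were compared first, to see how these genes differ in the hypertensive ventricle. A probe set was called at a limma adjusted p under 0.05 over all 15866 probe sets together with an unadjusted p under 0.01. In air, limma called 0 of 58 member probe sets, against 3.15% of all probe sets. With an unadjusted p under 0.05 there were 12, or 20.7%, against 17.5% of all, and for 11 the 4 SH-air arrays lay wholly apart from the 4 WKY-air arrays, against 11.3% of all. Those higher in SH-air were probe sets of Nexn, Fhl2, Flnc and Vcl, and those lower were of Myl2, Myl3, Myom2, Actn2, Cryab, Sgca and Mb. After quantile normalization 8 of 58 lay apart, 4 higher and 4 lower, with no share of all given here, and Myom2, Actn2 and Mb overlapped. Of the 14 member probe sets with a mean signal of 20000 or more, 12 lay below 0 in air, as did 87.5% of the 40 others that bright. Their median was −0.10 against −0.13 for the others, and 0.03 against 0.04 after quantile normalization. Under DE, a comparison that shares no arrays with the one in air, limma called 0 of 58 against 0.813% of all. An unadjusted p under 0.05 was reached by 7 (12.1%) against 13.3%, and groups lay apart for 2, the dimmer Tnni1 probe set and Myom2, against 8.8%. Both shares under DE were below those of the whole array.

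Averaged over exposures, 3 of 58 were called against 4.07% of all probe sets, 1 higher (1.77% of all) and 2 lower (2.3% of all), and 9 had an unadjusted p under 0.05 (15.5% against 17.7%). After quantile normalization 1 of 58 was called against 3.91%. In air, under DE and averaged, the median difference of the 40 genes, each by its brightest probe set, was −0.07, −0.04 and −0.03, where all probe sets had 0.02, −0.09 and −0.03. After quantile normalization the member medians were 0.02, −0.00 and 0.03, and those of all probe sets 0.01, −0.01 and 0.00. The 95% interval of the difference lay within 1.5-fold either way for 25, 32 and 36 of the 40 genes, and for the others it reached further. Of all probe sets, many of them dimmer, 35.8%, 38.1% and 58.8% had such an interval.

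Exposure was compared next, to ask whether DE moved these genes in the normotensive and in the hypertensive ventricle. In WKY rats limma called 0 of 58 member probe sets against 1.88% of all. An unadjusted p under 0.05 was reached by 19 (32.8%) against 20.5%, and groups lay apart for 9 against 12.7%, with probe sets of Ldb3 and Vcl higher in WKY-DE and of Tnnt2, Tnni3, Actn2, Ldb3, Xirp1, Cryab and Sgca lower. In SH rats 0 of 58 were called by limma, as were 0% of all. An unadjusted p under 0.05 was reached by 5 (8.62%) against 6.16%, and groups lay apart for 9 against 4.08%, with Cav3 higher in SH-DE and Tnni3, Myl3, Myom1, Actn2, Nexn, Fhl2, Cryab and Ckm lower. Averaged over strains limma called 0 of 58 against 0.145%, and 21 (36.2%) had an unadjusted p under 0.05 against 15.1%. For the interaction, which asks whether the exposure difference differs between strains, limma called 0 of 58 against 0.0063%, and 5 had an unadjusted p under 0.05 (8.62% against 12.5%). After quantile normalization the groups lay apart for 8 of 58 in WKY rats and 2 of 58 in SH rats, 1 of the 2 lower. An unadjusted p under 0.05 was then reached by 9 in WKY rats, 3 in SH rats, 7 averaged over strains and 10 for the interaction. No share of all at that setting is given here.

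In WKY-DE against WKY-air 35 of the 40 genes lay below 0, where 38.1% of all probe sets did, and the medians were −0.24 for the members and 0.10 for all. In SH-DE against SH-air 30 of 40 lay below 0 against 50.2% of all, with medians of −0.15 and −0.00. Averaged over strains 33 of 40 lay below 0 against 41% of all. After quantile normalization the counts were 25, 22 and 22 of 40, against 49.2%, 50.5% and 49.5% of all, and the member medians −0.04, −0.02 and −0.01.

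The low values went with the brightness of the probe set. Among member probe sets with a mean signal of 20000 or more, 14 of 14 lay below 0 in WKY-DE (median −0.34), as did 100% of the 40 other probe sets that bright (median −0.28). In SH rats 14 of 14 members (median −0.23) and 95% of the 40 others (median −0.25) lay below 0. After quantile normalization the member medians in this range were −0.01 and −0.02. Among the 8 member probe sets of signal 100 to 1000, 2 lay below 0 in WKY-DE and the median was 0.16, against 0.12 for the others in that range. At 5000 to 10000 and 10000 to 20000 the WKY member medians were −0.10 and −0.21, against −0.15 and −0.22 for the others. In SH rats they were −0.12 and −0.19, against −0.03 and −0.08. After quantile normalization the member medians in these ranges were 0.05 and 0.03 in WKY rats. In SH rats they were −0.08 and −0.08, against 0.01 and −0.01 for the others.

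**Figure D1:**
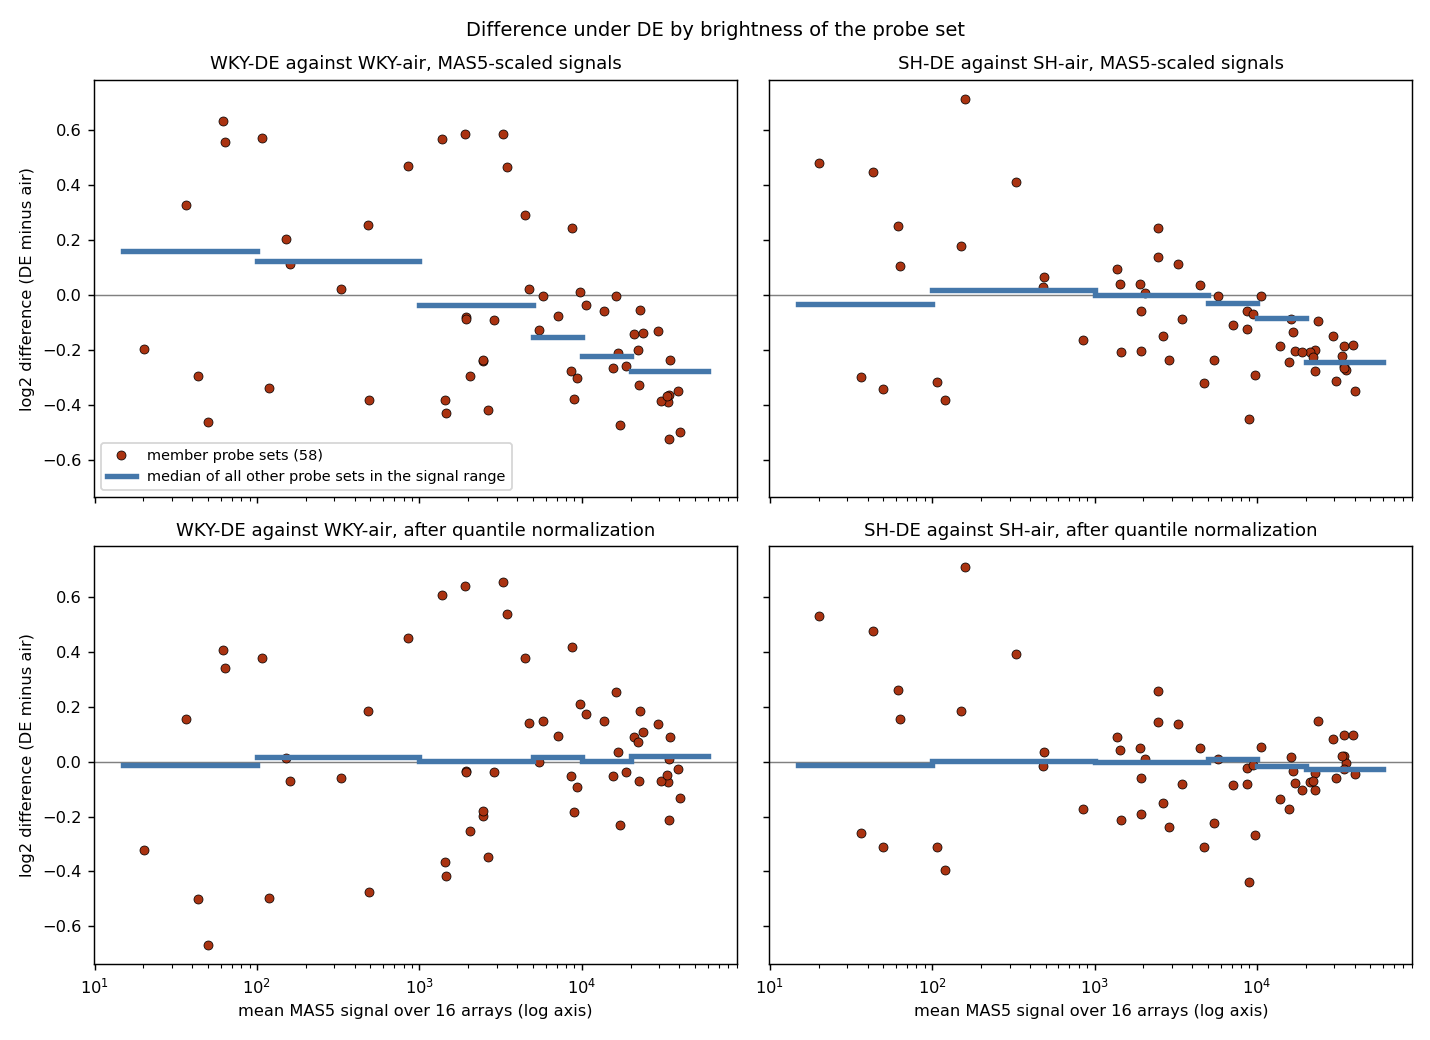
Log2 difference, DE minus air, against mean MAS5 signal over the 16 arrays (log axis) for 58 member probe sets and for the medians of all other probe sets by signal range, in WKY and SH rats, as MAS5-scaled and after quantile normalization. Members of signal 20000 or more have medians of −0.34 (WKY) and −0.23 (SH) as scaled, close to the other probe sets that bright, and of −0.01 and −0.02 after quantile normalization.

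On single arrays the summed signal of the 40 genes was 5.43%, 4.78%, 5.07% and 4.70% of the total for WKY-air and 4.22%, 3.99%, 4.89% and 4.48% for WKY-DE. The WKY groups overlapped through WKY-DE replicate 3. In SH-air the share was 4.62% to 4.93% and in SH-DE 4.05% to 4.54%, with no overlap. After quantile normalization all 16 arrays lay between 4.48% and 4.80%. The ratio of 3′ to 5′ signal of Gapdh, a sign of RNA quality, had the lower mean under DE in each strain, with overlapping groups. It was 1.32 ± 0.0281 for WKY-air against 1.22 ± 0.103 for WKY-DE, and 1.30 ± 0.0813 for SH-air against 1.24 ± 0.0599 for SH-DE (SD, n = 4). The 3 lowest Gapdh ratios were those of WKY-DE replicate 2 (1.12), WKY-DE replicate 1 (1.14) and SH-DE replicate 4 (1.17). Their shares were 3.99%, 4.22% and 4.05%. Other DE arrays had low shares at higher ratios, with 4.10% at 1.27 for SH-DE replicate 1 and 4.24% at 1.31 for SH-DE replicate 3. WKY-DE replicate 4 had 4.48% at 1.33. The same ratio of β-actin had a higher mean under DE in WKY rats, 1.47 for WKY-air against 1.51 for WKY-DE. In SH rats it was 1.46 for SH-air against 1.44 for SH-DE. The part of RNA quality in the result was not tested.

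**Figure D2:**
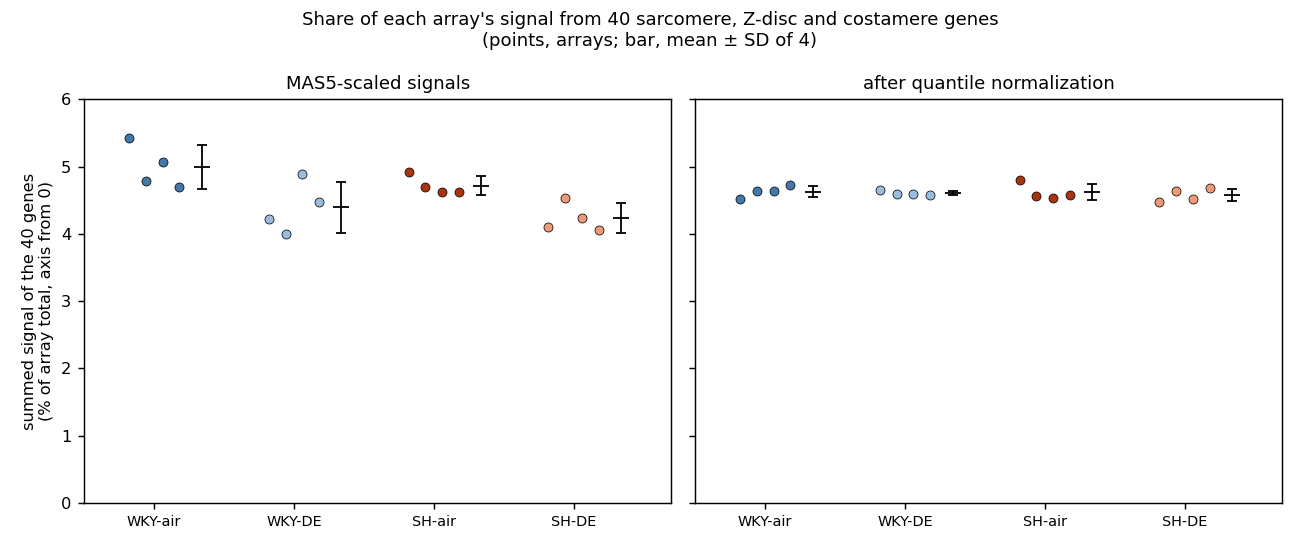
Summed signal of the 40 genes as a percentage of the total signal of each array, as MAS5-scaled and after quantile normalization, with points for single arrays and the mean and SD of the 4 arrays of each group. As scaled, DE arrays lie at 3.99% to 4.89% and air arrays at 4.62% to 5.43%, and after quantile normalization all lie at 4.48% to 4.80%.

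**Figure D3:**
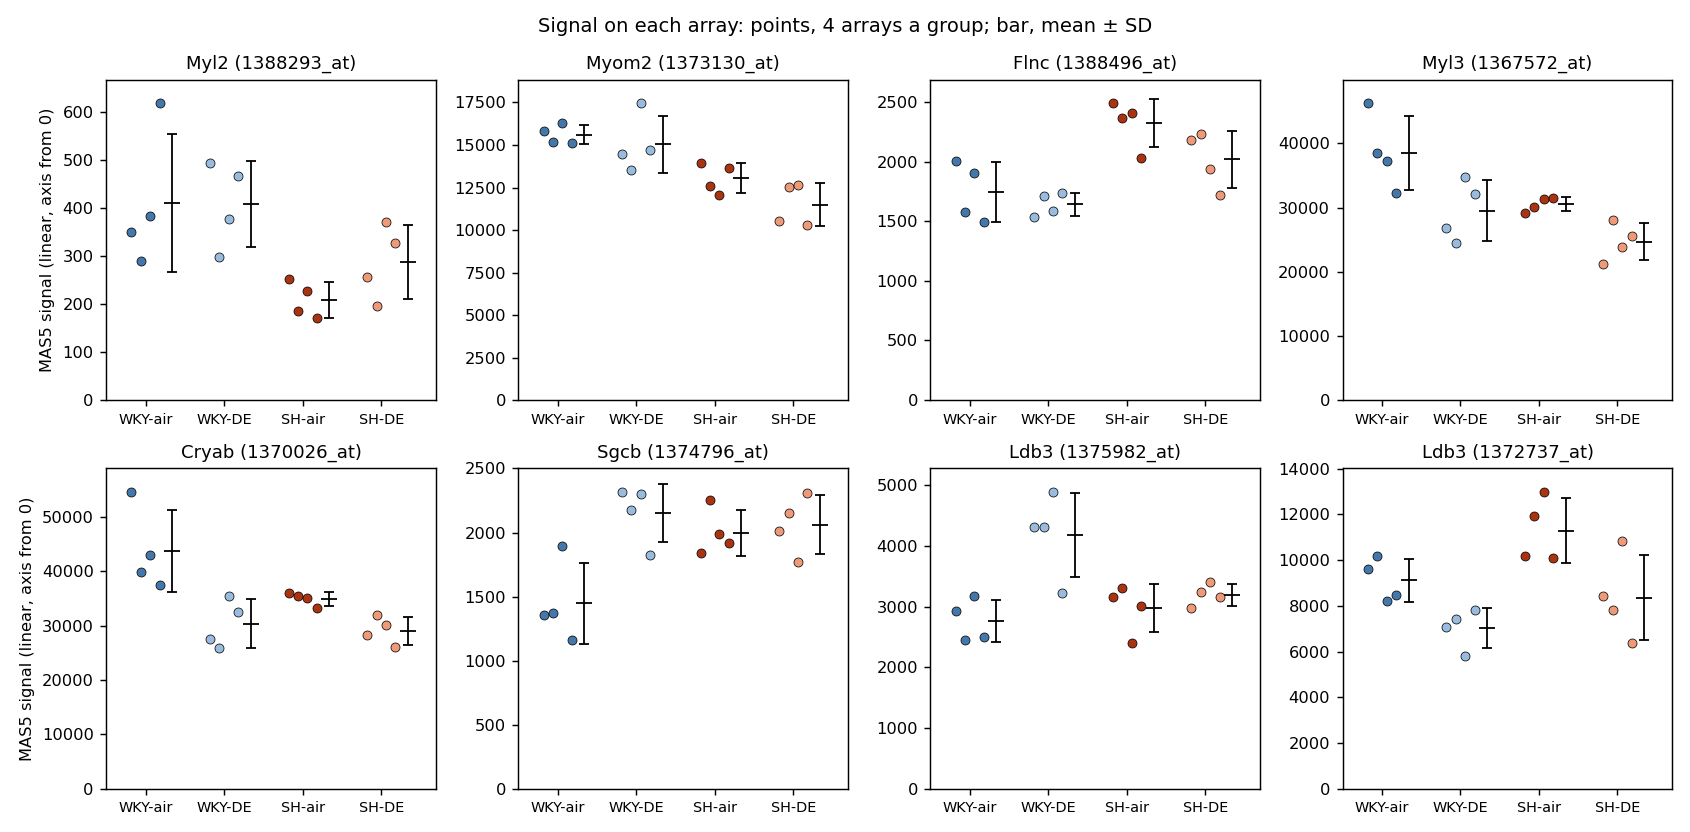
MAS5 signal (linear axis from 0) of 8 member probe sets on each of the 16 arrays, with the mean and SD of the 4 arrays of each group. Averaged over exposures Myom2 and the dim Myl2 probe set were lower and Flnc higher in SH rats, Myl3 and Cryab were lower in SH-DE than in WKY-air, and the pair of Ldb3 probe sets lay on opposite sides of WKY-air in WKY-DE.

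Of the thin filament genes, those below 0 were 6 of 8 (median −0.06, or 0.03 after quantile normalization) for strain averaged over exposures and 5 of 8 (median −0.21, or 0.03 after quantile normalization) for DE averaged over strains, and none was called. Tnnt2, troponin T, which ties the troponin complex to tropomyosin, gave the highest signal of them, which depends on the probe set as well as on the RNA. For Tnnt2 the WKY-air arrays read 55237, 46259.5, 46422 and 50483, the WKY-DE arrays 33532, 28882, 45857 and 33847, the SH-air arrays 52996, 40581, 35218 and 40098 and the SH-DE arrays 29704, 41754, 31546 and 29321. All WKY-DE arrays lay below all WKY-air arrays, while SH-DE replicate 2 lay within the SH-air range. The DE difference averaged over strains was −0.42 (SE 0.12, limma adjusted p = 0.134), and −0.09 (limma adjusted p = 0.725) after quantile normalization. Tnni3, the inhibitory subunit, averaged −0.29 under DE, Tnnc1, the calcium-binding subunit, −0.31, and the tropomyosins Tpm1 and Tpm2, which cover the myosin sites on actin, −0.26 and −0.16.

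The skeletal muscle forms were dim in this tissue. Over the 16 arrays Tnnt1 averaged a signal of 20.2 and Tnnc2 one of 61.8. Tnni1, the slow skeletal troponin I that the fetal heart also uses, had the lowest unadjusted p for DE in SH rats, by the brighter of its 2 probe sets. For that probe set the WKY-air arrays read 128, 145, 155 and 203, the WKY-DE arrays 187, 176, 152 and 166, the SH-air arrays 66.7, 91.1, 108 and 212 and the SH-DE arrays 189.5, 146, 215 and 219.6. SH-air replicate 4 lay within the SH-DE range and the other SH-air arrays below it, and the difference was 0.71 (SE 0.24, limma adjusted p = 0.741). The dimmer Tnni1 probe set went the other way in this comparison, at −0.32. In SH-DE against WKY-DE the dimmer probe set gave −0.98 and the brighter one 0.15.

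All 4 thick filament and titin genes lay below 0 for strain averaged over exposures (median −0.20, or −0.10 after quantile normalization) and for DE averaged over strains (median −0.26, or −0.03). Myl3 is the essential light chain of ventricular and slow myosin. For Myl3 the WKY-air arrays read 46217, 38464, 37262 and 32258, the WKY-DE arrays 26739.5, 24532, 34836 and 32055, the SH-air arrays 29119, 30153, 31259.5 and 31489 and the SH-DE arrays 21228, 28017, 23900.3 and 25559. The SH-DE arrays lay below all SH-air arrays and the SH-air arrays below all WKY-air arrays. From WKY-air to SH-DE, a comparison that joins strain and exposure, Myl3 fell from a mean of 38550.1 to 24676 (log2 difference −0.64, SE 0.14, 95% interval −0.94 to −0.34, limma adjusted p = 0.0337). After quantile normalization the difference was −0.21 (limma adjusted p = 0.303). The call ended when any 1 of 6 arrays was left out, namely WKY-air replicate 1, WKY-air replicate 2, WKY-air replicate 3, SH-DE replicate 1, SH-DE replicate 2 and SH-DE replicate 4 (limma adjusted p up to 0.0963). Its difference averaged over exposures was −0.29 (SE 0.10, limma adjusted p = 0.132) for strain.

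Myl2, the regulatory light chain of ventricular myosin, had 2 probe sets. For the bright one the WKY-air arrays read 60897, 39898, 48299.7 and 35667, the WKY-DE arrays 32421, 27748, 44679 and 39473, the SH-air arrays 36694, 40396, 42088 and 38837 and the SH-DE arrays 34615, 40801, 32843 and 31438. All 4 groups overlapped, and the strain difference averaged over exposures was −0.11 (SE 0.12, limma adjusted p = 0.705), or 0.04 after quantile normalization, where its sign changed. For the dim one the WKY-air arrays read 349.9, 289.7, 382 and 617, the WKY-DE arrays 493, 297, 376 and 465, the SH-air arrays 251, 184, 226 and 171 and the SH-DE arrays 256, 196, 369 and 326. The SH-air arrays lay below all WKY-air arrays, and SH-DE overlapped both WKY groups. Averaged over exposures the dim probe set fell from 409 in WKY to 248 in SH rats (log2 difference −0.69, SE 0.17, 95% interval −1.05 to −0.33, limma adjusted p = 0.0331), and after quantile normalization the difference was −0.64 (limma adjusted p = 0.0439) and was still called. The call ended when any 1 of 9 arrays was left out, that is all but WKY-air replicate 1, WKY-air replicate 2, WKY-DE replicate 2, SH-air replicate 1, SH-air replicate 3, SH-DE replicate 3 and SH-DE replicate 4 (limma adjusted p up to 0.0731). In air alone the difference was −0.88 (SE 0.24, limma adjusted p = 0.0617), and without WKY-air replicate 2 it was called (limma adjusted p = 0.0475). Which transcripts each probe set detects was not tested.

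Mybpc3, cardiac myosin-binding protein C, which tunes cross-bridge cycling, was 17547 ± 1498 in WKY-air and 16475 ± 2026 in SH-air (SD, n = 4), with a DE difference averaged over strains of −0.25 (SE 0.11, limma adjusted p = 0.303). Ttn, the molecular spring of the sarcomere, had a strain difference of −0.28 (SE 0.12, limma adjusted p = 0.226).

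Myom2 is myomesin-2, which cross-links myosin at the M-band. For Myom2 the WKY-air arrays read 15823, 15156, 16298 and 15125, the WKY-DE arrays 14462, 13519.5, 17442 and 14707, the SH-air arrays 13929, 12575, 12049.7 and 13632 and the SH-DE arrays 10535, 12519, 12620.1 and 10276. SH arrays lay below all WKY arrays of the same exposure in air and under DE, and SH-air overlapped WKY-DE. Averaged over exposures Myom2 fell from 15316 to 12267 in SH rats (log2 difference −0.32, SE 0.08, 95% interval −0.49 to −0.15, limma adjusted p = 0.0336). After quantile normalization the difference was −0.27 (limma adjusted p = 0.0698). The call ended when any 1 of 12 arrays was left out, that is all but WKY-DE replicate 2, SH-air replicate 1, SH-DE replicate 2 and SH-DE replicate 3 (limma adjusted p up to 0.0776). Under DE the strain difference was −0.39 (SE 0.11, limma adjusted p = 0.146), the lowest unadjusted p among the members in that comparison. Myom1, the main myomesin, averaged −0.08 (SE 0.08, limma adjusted p = 0.655) for strain and −0.18 (SE 0.08, limma adjusted p = 0.285) for DE.

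Of the 16 Z-disc and intermediate filament genes, 11 lay above 0 for strain averaged over exposures (median 0.04 in both scalings), and 15 lay below 0 for DE averaged over strains (median −0.15, or −0.07 after quantile normalization). Flnc, filamin C, cross-links actin at the Z-disc and the membrane. For Flnc the WKY-air arrays read 2004, 1575, 1906 and 1493, the WKY-DE arrays 1534, 1710.4, 1587 and 1733, the SH-air arrays 2487, 2365, 2407 and 2031 and the SH-DE arrays 2180.4, 2234, 1934 and 1722. The SH-air arrays lay above all WKY-air arrays, while SH-DE replicates 3 and 4 lay within the WKY range. In SH rats Flnc rose from 1693 to 2170.1 averaged over exposures (log2 difference 0.35, SE 0.09, 95% interval 0.16 to 0.55, limma adjusted p = 0.0398). After quantile normalization the difference was 0.32 (limma adjusted p = 0.0706). The call ended when any 1 of 11 arrays was left out, that is all but WKY-air replicate 1, WKY-air replicate 3, SH-air replicate 4, SH-DE replicate 3 and SH-DE replicate 4 (limma adjusted p up to 0.0879). The difference was 0.42 (SE 0.13, limma adjusted p = 0.0969) in air and 0.29 (SE 0.13, limma adjusted p = 0.344) under DE.

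Cryab, αB-crystallin, is a small heat shock protein that binds desmin filaments and titin. For Cryab the WKY-air arrays read 54509.7, 39829.9, 42940.4 and 37434, the WKY-DE arrays 27456, 25785, 35493 and 32549, the SH-air arrays 36005, 35366, 35028 and 33172 and the SH-DE arrays 28243, 31988, 30048 and 25969.9. Within each strain all DE arrays lay below all air arrays. Between WKY-air and SH-DE it fell from 43679 to 29062 (log2 difference −0.58, SE 0.14, 95% interval −0.87 to −0.28, limma adjusted p = 0.0464). After quantile normalization the difference was −0.17 (limma adjusted p = 0.308). The call ended when any 1 of 15 arrays was left out, that is all but WKY-DE replicate 3 (limma adjusted p up to 0.138). DE averaged over strains gave −0.40 (SE 0.10, limma adjusted p = 0.122), or −0.12 (limma adjusted p = 0.409) after quantile normalization.

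SH-DE against WKY-air shares its arrays with the comparisons above. It called 2 of 58 member probe sets, 1.94% being called in all, and both were lower, against 0.889% of all called lower. There were 18 with an unadjusted p under 0.05 (31% against 17.2%), and 11 lay wholly lower in SH-DE, against 4.73% of all. After quantile normalization 0 of 58 were called by limma against 1.56%, and 6 (10.3%) had an unadjusted p under 0.05, for which no share of all is given here. The count of members was 4 without SH-DE replicate 3, where 508 of all probe sets were called against 308 with every array. It was 0 without WKY-air replicate 1 or 2 or SH-DE replicate 1, 2 or 4, where 168, 199, 127, 103 and 114 of all were called. It was 2 without WKY-DE replicate 3 or SH-air replicate 1 and 1 without any other array.

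Ldb3, also called Cypher or ZASP, binds α-actinin at the Z-disc, and its 4 probe sets disagreed. In WKY-DE against WKY-air they gave, from the brightest to the dimmest, −0.38, −0.01, 0.47 and 0.59. For the brightest the WKY-air arrays read 9617, 10166, 8225 and 8457, the WKY-DE arrays 7091, 7413, 5799.8 and 7813, the SH-air arrays 10187, 11926, 12970.1 and 10091 and the SH-DE arrays 8451, 7806, 10828 and 6372. All WKY-DE arrays lay below all WKY-air arrays, and the DE difference was −0.38 (SE 0.16, limma adjusted p = 0.2) in WKY and −0.45 (SE 0.16, limma adjusted p = 0.741) in SH rats. For the dimmest the WKY-air arrays read 2926, 2457, 3173 and 2502, the WKY-DE arrays 4313, 4307, 4889 and 3233, the SH-air arrays 3168, 3317, 2409 and 3005 and the SH-DE arrays 2975, 3238, 3407 and 3165. All WKY-DE arrays lay above all WKY-air arrays, and the difference was 0.59 (SE 0.15, limma adjusted p = 0.0525), or 0.65 (limma adjusted p = 0.0521) after quantile normalization. Without any 1 of WKY-air replicate 3, WKY-DE replicate 4 and SH-air replicate 3 this difference was called (limma adjusted p = 0.0456 to 0.049). Ldb3 makes several isoforms, and which of them each probe set detects was not tested.

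Actn2, α-actinin-2, the main actin cross-linker of the Z-disc, averaged 21156 ± 2590.3 for WKY-air against 15226 ± 1664 for WKY-DE, and 17360.4 ± 429 for SH-air against 15209.8 ± 2200.5 for SH-DE (SD, n = 4). Its DE difference averaged over strains was −0.34 (SE 0.09, limma adjusted p = 0.134), and −0.16 (limma adjusted p = 0.466) after quantile normalization. Des, desmin, the intermediate filament that links Z-discs, averaged −0.20 for DE. Values were −0.12 for Csrp3, the muscle LIM protein, −0.05 for Tcap, the titin cap, −0.17 for Myoz2, a calcineurin-binding protein, and −0.02 for Smpx, a small muscle protein. The actin-binding proteins Nexn and Xirp1 gave −0.15 and −0.17, and a second Nexn probe set went the other way at 0.16. By their brightest probe sets the LIM-domain proteins Fhl1, Fhl2, Pdlim1, Pdlim3 and Pdlim5 ranged from −0.23 for Fhl2 to 0.09 for Pdlim5. None of these passed the test. They are MAS5-scaled values, and after quantile normalization some changed sign. The Csrp3 arrays then read 21568 to 23093 in WKY-air and 22830 to 24941 in WKY-DE. In SH-air they read 23093 to 24506 and in SH-DE 23903 to 28686.

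Of the 6 costamere and sarcolemma genes, 4 lay above 0 for strain averaged over exposures (median 0.11, or 0.07 after quantile normalization) and 3 lay below 0 for DE averaged over strains (median −0.03 in both scalings), and none was called. Sgcb, β-sarcoglycan, is a transmembrane member of the dystrophin complex. For Sgcb the WKY-air arrays read 1356, 1374, 1895 and 1163, the WKY-DE arrays 2315, 2174, 2302 and 1826, the SH-air arrays 1837, 2251, 1989 and 1918 and the SH-DE arrays 2016, 2153, 1767 and 2309. WKY-air replicate 3 reached into the WKY-DE range and the other WKY-air arrays lay below it. The DE difference was 0.59 (SE 0.15, limma adjusted p = 0.0577) in WKY rats, 0.04 in SH rats, and the interaction was −0.54 (SE 0.21, limma adjusted p = 0.319). Without WKY-air replicate 3 the WKY difference was 0.72 and was called (limma adjusted p = 0.0277).

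Cav3, caveolin-3, forms the caveolae of muscle membrane. For Cav3 the WKY-air arrays read 2712, 2228, 2346 and 2589.8, the WKY-DE arrays 2194, 2759, 1825 and 1714, the SH-air arrays 2463, 2385, 2303 and 2437 and the SH-DE arrays 2916, 2749, 2889 and 2825. The SH-DE arrays lay above all SH-air arrays and above all WKY-DE arrays but replicate 2, whose signal lay within their range. The strain difference under DE was 0.44 (SE 0.13, limma adjusted p = 0.158), and it was called without WKY-DE replicate 2 (limma adjusted p = 0.0451). The interaction was 0.48 (SE 0.19, limma adjusted p = 0.325).

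Vcl, vinculin, which links actin to integrins and cadherins, had 2 probe sets, of which 1 gave the highest signal of the costamere genes. For that probe set the WKY-air arrays read 2872, 3049, 3129.6 and 2714, the WKY-DE arrays 2826, 2311, 2990.4 and 2954, the SH-air arrays 3525, 3256, 2979 and 2899 and the SH-DE arrays 2685, 2765, 2919 and 2366. Each pair of groups overlapped, and SH-air replicates 1 and 2 lay above all other arrays. In WKY-DE against WKY-air the bright probe set gave −0.09 and the dimmer one 0.57. For Sgca, α-sarcoglycan, the WKY-air arrays read 3414, 3313, 3137 and 3479, the WKY-DE arrays 2199, 2803, 2389.8 and 2602, the SH-air arrays 1984, 2405, 3018 and 2685 and the SH-DE arrays 2252, 2179, 2765 and 1876. The WKY-air arrays lay above all arrays of the other groups, and the strain difference averaged over exposures was −0.28 (SE 0.10, limma adjusted p = 0.16). Dag1, dystroglycan, the receptor for laminin, averaged −0.07 for DE by its brightest probe set, and its 3 probe sets ran from −0.36 to 0.15. Dmd, dystrophin, was dim at a mean signal of 43.5.

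All 4 genes of muscle energy, oxygen and calcium stores lay below 0 for strain averaged over exposures (median −0.11, or −0.03 after quantile normalization) and for DE averaged over strains (median −0.20, or −0.01), and none was called. Mb, myoglobin, which stores oxygen, gave the highest signal. For Mb the WKY-air arrays read 47074, 37669, 37795 and 37651, the WKY-DE arrays 28367, 23952, 38914 and 34412, the SH-air arrays 34739, 33453, 34531 and 33037 and the SH-DE arrays 28029, 34078, 27722 and 26919. The SH-air arrays lay below all WKY-air arrays, and WKY-DE overlapped both. The DE difference averaged over strains was −0.30 (SE 0.10, limma adjusted p = 0.209), and −0.01 (limma adjusted p = 0.961) after quantile normalization. Ckm and Ckmt2, the cytosolic and mitochondrial creatine kinases, gave −0.21 and −0.14 for DE, and −0.00 and 0.11 after quantile normalization. Hrc, a calcium-binding protein of the sarcoplasmic reticulum, had a strain difference of −0.26 (SE 0.10, limma adjusted p = 0.188).

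**Figure D4:**
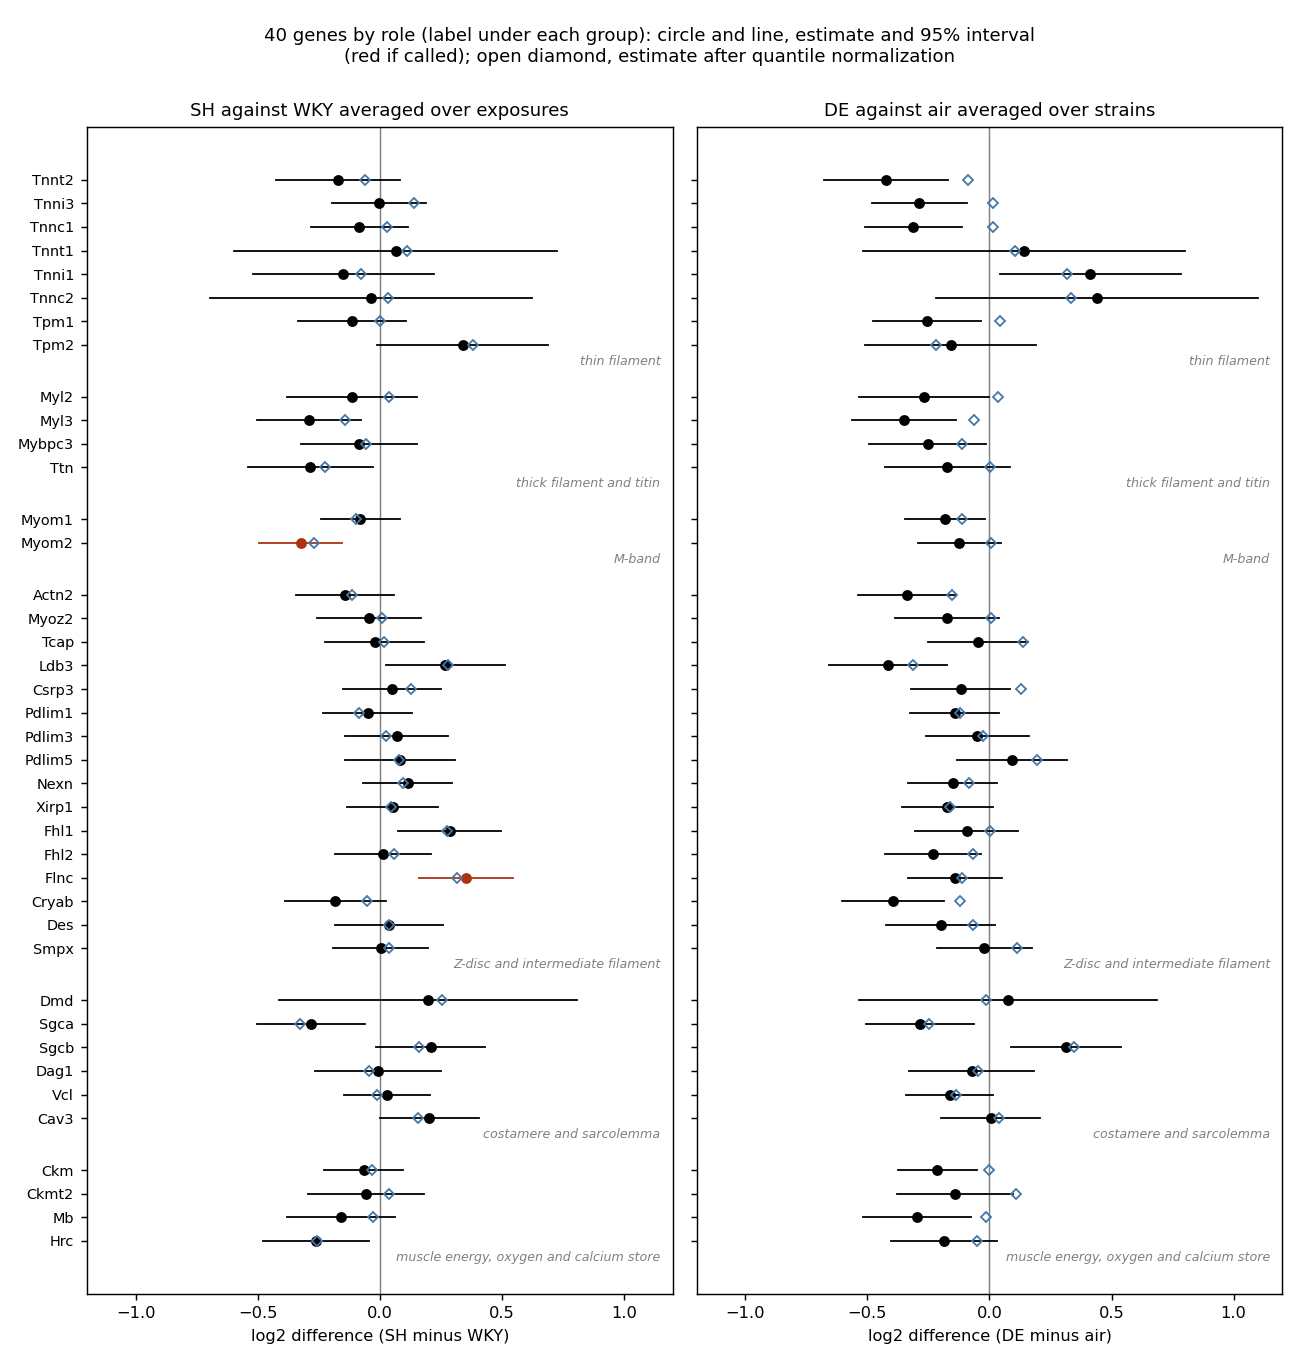
Log2 difference with its 95% interval for each of the 40 genes by its brightest probe set, grouped by role, for SH against WKY averaged over exposures and for DE against air averaged over strains, with called genes in red and open diamonds for the quantile-normalized estimate. Myom2 and Flnc are the called genes for strain, and for DE 33 of 40 estimates lie below 0 as scaled and 22 of 40 after quantile normalization.

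Markers of atrial myocytes and of fibroblasts moved with the strain comparison in air. In that comparison limma called 0 of 7 endothelial, 0 of 10 smooth muscle and pericyte, 0 of 14 skeletal muscle fibre and 0 of 2 erythroid markers. Of the 9 ventricular myocyte markers 1 was called lower. Of the 4 adipocyte markers 1 was called, and it was lower. In SH-air against WKY-air 6 of 8 atrial myocyte markers and 6 of 10 fibroblast markers were called lower, and the summed fibroblast signal was 28451 to 36708 for WKY-air, 18498 to 22028 for SH-air, 21563 to 27741 for WKY-DE and 22129 to 24553 for SH-DE. Under DE limma called 0 of 8 atrial and 0 of 10 fibroblast markers between strains, with median differences of −0.76 and −0.06. Averaged over exposures, where Myom2, Flnc and the dim Myl2 probe set were called, 4 of 8 atrial and 4 of 10 fibroblast markers were called lower. So were 1 of 7 endothelial and 1 of 4 adipocyte markers, and of the 9 ventricular myocyte markers 1 was called higher and 1 lower. In WKY-DE against WKY-air 1 atrial and 1 fibroblast marker were called lower, and in SH-DE against WKY-air 3 of 8 atrial and 0 of 10 fibroblast markers. With the mean log2 atrial marker signal of each array as a covariate, added after the data were seen, the strain differences averaged over exposures were −0.12 for Myom2 (limma adjusted p = 0.859), 0.41 for Flnc (limma adjusted p = 0.458) and −0.56 for the dim Myl2 probe set (limma adjusted p = 0.652). In SH-DE against WKY-air they were −0.41 for Myl3 (limma adjusted p = 0.566) and −0.28 for Cryab (limma adjusted p = 0.697). Both SH groups lay wholly below WKY-air in summed atrial signal, so this covariate also takes up strain differences. Averaged over exposures 30 of all probe sets were called with it, against 646 without it. Atrial signal and strain cannot be told apart by this fit, and the part of fibroblasts in these results was not tested.

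A further 110 genes of the same structures were read beside the members. Of all probe sets 3.15% were called in air, 0.813% under DE and 4.07% averaged over exposures. In air 1 of the 110 was called higher in SH rats, the chaperone Hspb8 (0.49, SE 0.13, limma adjusted p = 0.0497), and 4 lower. The lower ones were Palld, an actin cross-linker (−1.13, SE 0.20, limma adjusted p = 0.00783), Myh7, which encodes β-myosin heavy chain (−0.93, SE 0.18, limma adjusted p = 0.0123), Vim, the intermediate filament protein of mesenchymal cells (−0.76, SE 0.18, limma adjusted p = 0.03), and the small heat shock protein Hspb3 (−0.70, SE 0.16, limma adjusted p = 0.03). Under DE 0 were called higher and 1 lower, the intermediate filament protein Synm (−0.74, SE 0.14, limma adjusted p = 0.0216). Averaged over exposures 1 was called higher, Acta1, skeletal α-actin (0.42, SE 0.10, limma adjusted p = 0.0221), and 6 lower. These were Myh7, Palld, Synm, the parvin Parva, Pomt1, which glycosylates dystroglycan, and Vim.

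For exposure in WKY rats 1 of the 110 was called higher and 3 lower, where 1.88% of all probe sets were called. Ank2, an ankyrin that anchors membrane proteins, was higher (0.56, SE 0.12, limma adjusted p = 0.0353). Ankrd23, a titin-binding repeat protein, was lower (−1.02, SE 0.23, limma adjusted p = 0.0398). So was the small heat shock protein Hspb2 (−0.87, SE 0.19, limma adjusted p = 0.0398). Acta1 was lower at −0.56 (SE 0.14, limma adjusted p = 0.0498). After quantile normalization none of the 110 was called in this comparison. The calls over all probe sets fell there as well, from 298 to 91. In SH-DE against SH-air, in DE averaged over strains and in the interaction limma called 0 of the 110, and 10, 26 and 14 had an unadjusted p under 0.05. Of all probe sets 6.16%, 15.1% and 12.5% did. In SH-DE against WKY-air, where 1.94% of all probe sets were called, 0 of the 110 were called higher and 3 lower, Myh7, Vim and Pomt1. Over the 110 genes the median difference was −0.09 for DE in WKY and −0.05 for DE in SH rats.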

How the data were processed

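RNA from 16 left ventricles was hybridised singly to Affymetrix Rat 230A arrays. The authors deposited MAS5 signal intensities on a linear scale, each array scaled to a mean of 500 after trimming 2% of values at each end; the MAS5 version is not given in the sources used here, and the values the authors normalized by another method for their own analysis were not used here. Array number limits the precision.

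Of 15923 probe sets, 57 controls were left out. Symbols came from the platform annotation: 12783 probe sets named 1 gene, 312 several, and 2771 are unnamed here. Signals plus 16.1 (the 10th percentile) were put on the log2 scale, and limma 3.58.1 in R 4.3.3 fitted 1 model of the 4 group means (12 residual degrees of freedom), with Benjamini-Hochberg adjustment over 15866 probe sets and 8 contrasts. The methods describe the 4 rats of a group as biological replicates. Alternatives were quantile normalization, offsets, filters, moderation, array weights, only the compared groups, a replicate block, and arrays left out singly.

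The 43 members and all lists were chosen with earlier results of these data known. Arrays are given for each called probe set, the 2 of lowest p in each contrast without calls, and the brightest of each role; Sgca was added after its values were seen, and other members are given by differences or group means. Up to 6 related genes are named in each contrast, those called of lowest p. Genes with several probe sets are counted by the brightest, and for several of them another probe set had the opposite sign.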

Additional observations from a re-analysis of the deposited data

Results flagged for a closer look

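In 11 of 232 sets of 4 arrays (58 member probe sets in 4 groups), 1 array lay further from the nearest other than Dixon's 95% value allows, and chance gives about 1 in 20 such sets. WKY-DE replicate 3 was high for Tnnc1 (37881 against 28267 to 29570 on the others), Tnnt1 (44.8 against 7.09 to 8.74) and a Ldb3 probe set (5171.5 against 3453 to 3733). SH-DE replicate 2 was high for 2 Tpm1 probe sets (23448 against 19271 to 19342, and 103.7 against 18.3 to 21.1) and for Mb (34078 against 26919 to 28029). SH-air replicate 1 was high for Tnni3 (40334 against 34676 to 34966), SH-air replicate 2 for a Fhl2 probe set (13030 against 10652 to 11035) and SH-air replicate 4 for Tnnt1 (45.3 against 3.46 to 9.4). WKY-air replicate 1 was high for Mb (47074.5 against 37651 to 37795). In SH-air replicate 3 the dim Tnnt2 probe set read 5.25, against 73.2 to 77.3 on the others. Tnnt1 and the 103.7 and 5.25 values come from dim probe sets near the offset of 16.1.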

How the results depend on the processing

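The called differences and those of lowest p in each contrast kept their direction under every alternative run. Some of the other members changed sign after quantile normalization, among them the bright Myl2 probe set for strain and Csrp3 for DE. Counts of called member probe sets that moved are given here, first as reported, each followed by the number of all probe sets called at the same setting. In SH-air against WKY-air (0, all 499) the count was 1 (all 628) with an offset at the 25th percentile, 3 (all 766) without the dimmest 40% of probe sets and 3 (all 752) with an intensity trend and robust moderation, and as arrays were left out singly it ran from 0 to 1 (all at most 558). In SH-DE against WKY-DE (0, all 129) the trend gave 1 (all 244), and single arrays 0 to 1 (all 67 to 212). In WKY-DE against WKY-air (0, all 298) those 3 settings gave 3, 4 and 7 (all 536, 639 and 667) and array weights 3 (all 529), and single arrays 0 to 2 (all 43 to 304). In SH-DE against WKY-air (2, all 308) the count was 0 after quantile normalization (all 248), at an adjusted p under 0.01 (all 74), with only the compared groups (all 63) and with the atrial covariate (all 10). An offset of 1 gave 1 (all 254), the 25th percentile 4 (all 442), no dim probe sets 7 (all 607) and the trend 10 (all 606), and single arrays 0 to 4 (all 103 to 508). In strain averaged over exposures (3, all 646) quantile normalization gave 1 (all 621), an adjusted p under 0.01 gave 0 (all 257), the atrial covariate 0 (all 30) and the trend 5 (all 929), and single arrays 0 to 3 (all 425 to 806). Leaving out both WKY-DE replicate 3 and SH-DE replicate 3, chosen after seeing the data, gave 5 (all 456) in SH-DE against WKY-air and 2 (all 668) in strain averaged over exposures, where Flnc was no longer called. For DE averaged over strains (0, all 23) the trend gave 4 (all 128). Single arrays left 0 for DE averaged over strains, SH-DE against SH-air and the interaction. The cause of these shifts was not tested. Without the dim probe sets fewer are adjusted over, and the moderation is estimated without them too.

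Replicate numbers did not pair the arrays (24 same-number pairs, correlations of deviations −0.10 to 0.05). With the replicate block the counts were 1 (all 315) for SH-air against WKY-air, 0 (all 169) for SH-DE against WKY-air and 1 (all 480) for strain averaged over exposures. With 4 arrays a group, 18 to 36 of the 40 genes had an interval within 1.5-fold, depending on the comparison, against 16.9% to 59.9% of all probe sets.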
